A study of Homo sapiens with 9 samples.

Results

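MSI2, FAM53B, SEPT9, HDAC4, EVL, GALNT2 and TBCD lie under the widest domains of H3K27ac (acetylated lysine 27 of histone H3) in DND-41, a human line of T-cell acute lymphoblastic leukemia. These 7 genes were chosen by the width of the H3K27ac peaks over them, so every H3K27ac width and cover given here describes the choice and carries no test. Each gene was read as a window, the gene itself plus 25 kb on each side in the hg19 build, and the 7 windows together span 2.06 Mb. They held 184 of 52967 H3K27ac peaks in ACBI-treated cells, 165 of 90495 in DMSO-treated cells, 17 of 12834 H3K4me3 peaks, 17 of 7445 BRG1 peaks and 113 of 19893 RUNX1 peaks.

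The study profiled DND-41 chromatin by CUT&RUN, in which an antibody directs micrococcal nuclease to its target and the released DNA is sequenced. H3K27ac was profiled in cells given 100 nM ACBI-1, which makes cells degrade PBRM1 and both ATPases of SWI/SNF, and in cells given the vehicle DMSO. H3K4me3 (a mark found mainly at active promoters), BRG1 (the SWI/SNF motor protein encoded by SMARCA4) and RUNX1 (a DNA-binding transcription factor of blood cells) were profiled in cells with no treatment label. The samples held 1 library per target and condition, all from the same cell line, and the length of treatment is not given in the labels. The titles of both H3K27ac libraries carry a replicate number, and whether further replicates were made is not known. The control of RUNX1 is titled an input but labelled with an IgG antibody, so whether the RUNX1 library was made like the others is not known, and its peaks were called separately from those of BRG1. Only peak positions were used: read depth is unknown, differences between ACBI and DMSO cannot be set against a spread between replicates, so no test was run. Between the lists, the ACBI library had less H3K27ac in all, 70.8 Mb against 127.2 Mb in DMSO, a ratio of 0.556, and whether depth had a part in that was not tested.

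H3K27ac is deposited by the acetyltransferases p300 and CBP and marks active enhancers and promoters. Long stretches of it, often called super-enhancers or stretch enhancers, tend to lie over genes that define a cell type, and RUNX1 is among the factors that bind such stretches in T cells and T-cell leukemia. SWI/SNF complexes use ATP to move nucleosomes and keep many enhancers open. The 7 genes have unlike functions. MSI2 encodes Musashi-2, an RNA-binding protein that controls translation in blood stem cells and leukemia. HDAC4 encodes a class IIa histone deacetylase that represses MEF2 target genes. FAM53B is known from zebrafish as a factor for nuclear entry of beta-catenin. SEPT9 encodes a GTP-binding septin of the cytoskeleton, EVL an actin regulator of the Ena/VASP family, TBCD a cofactor for tubulin folding, and GALNT2 a Golgi enzyme that starts mucin-type O-glycosylation.

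Sequence before the annotated start is shown for FAM53B, EVL, TBCD and SEPT9, as examples of unlike starts: in ACBI, H3K27ac covered the whole H3K4me3 peak at the FAM53B start and part of those at EVL and TBCD, and SEPT9 had no H3K4me3 peak at its start. Each is 250 bases that end just before the start in RefSeq's GRCh38.p14 tables, read 5′ to 3′ on the gene's strand. Capitals mark a core RUNX motif.
FAM53B: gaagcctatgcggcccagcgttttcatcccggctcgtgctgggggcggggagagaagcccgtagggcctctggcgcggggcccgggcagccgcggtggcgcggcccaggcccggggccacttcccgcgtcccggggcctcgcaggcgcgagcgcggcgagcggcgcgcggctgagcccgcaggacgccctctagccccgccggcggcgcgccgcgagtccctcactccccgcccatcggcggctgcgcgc
EVL: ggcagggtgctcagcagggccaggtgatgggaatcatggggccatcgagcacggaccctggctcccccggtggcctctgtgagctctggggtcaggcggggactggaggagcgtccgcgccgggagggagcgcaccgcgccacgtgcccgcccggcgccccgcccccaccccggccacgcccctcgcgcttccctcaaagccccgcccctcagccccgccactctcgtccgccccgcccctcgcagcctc
TBCD: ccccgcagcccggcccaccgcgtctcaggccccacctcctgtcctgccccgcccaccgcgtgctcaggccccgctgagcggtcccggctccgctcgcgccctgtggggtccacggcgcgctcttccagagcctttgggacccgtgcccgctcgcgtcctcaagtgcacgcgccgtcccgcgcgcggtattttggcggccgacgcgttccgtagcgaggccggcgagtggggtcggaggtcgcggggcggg
SEPT9: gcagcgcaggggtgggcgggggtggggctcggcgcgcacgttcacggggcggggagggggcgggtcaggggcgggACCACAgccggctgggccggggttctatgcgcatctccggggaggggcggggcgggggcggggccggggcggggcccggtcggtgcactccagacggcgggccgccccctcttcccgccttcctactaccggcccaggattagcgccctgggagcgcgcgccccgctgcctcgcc
The motifs searched, on both strands, were TGTGGT and TGCGGT. The capitals in SEPT9 are TGTGGT read on the opposite strand, 175 to 170 bases before the start. That motif was present in 11.0% of the 35116 promoters of the table, TGCGGT in 5.84%, and either of them in 16.3%. FAM53B, EVL and TBCD held neither motif in these 250 bases. The stretches shown were rich in CpG: FAM53B had 41 CpG dinucleotides, TBCD 39, SEPT9 32 and EVL 26, against a median of 11 over the table. Of the genes not shown, GALNT2 had 42, MSI2 14 and HDAC4 2. The RefSeq promoter of HDAC4 lies 126.9 kb into the gene.

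The 4 widest ACBI peaks and the 6 widest DMSO peaks lay in genes of the set, in different orders, and the other genes ranked lower. In ACBI the widest peak of all covered 187633 bp of MSI2, followed by GALNT2 with 105399 bp, EVL with 96129 bp and TBCD with 76382 bp. FAM53B, SEPT9 and HDAC4 ranked 11, 12 and 16 in ACBI, with peaks of 55891, 54175 and 49661 bp. In DMSO the widest peak was again in MSI2, with 116256 bp, followed by FAM53B with 111688 bp, SEPT9 with 98379 bp, HDAC4 with 98371 bp, EVL with 88187 bp and GALNT2 with 86462 bp. MSI2 also had the DMSO peaks ranked 7 and 8, of 57152 and 56211 bp. TBCD ranked 4 in ACBI but only 16 in DMSO, with 50814 bp. The widest DMSO peak outside the windows ranked 9 and measured 55726 bp, on chromosome 3 (13081067 to 13136792), so TBCD was narrower in DMSO than some peaks outside the set.

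Of the peaks over 50 kb, 7 of 15 in ACBI and 9 of 16 in DMSO lay in the windows. The median peak of the whole lists was 754 bp in ACBI and 741 bp in DMSO.

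**Figure D1:**
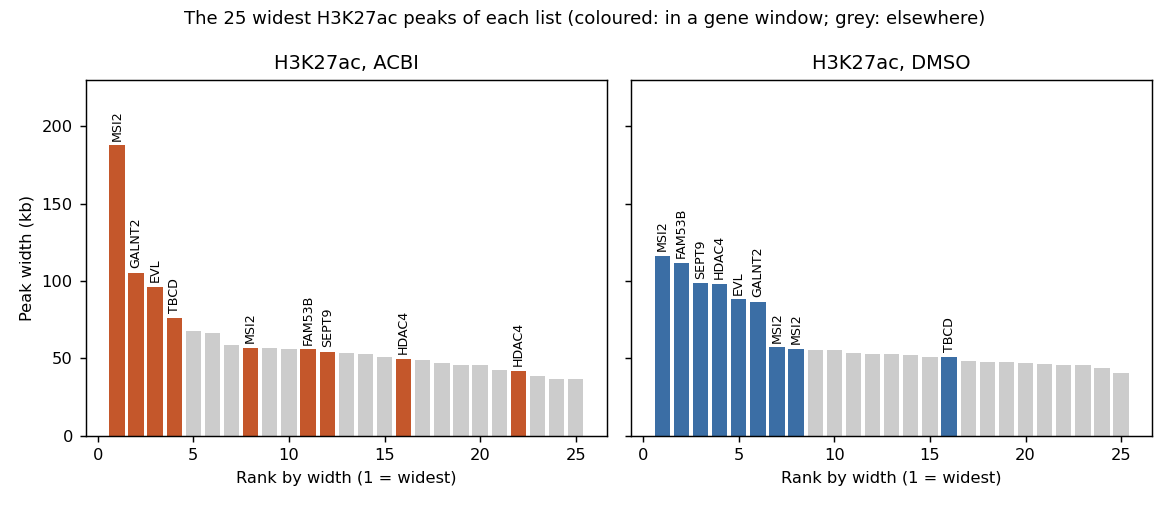
Widths in kb of the 25 widest H3K27ac peaks, ranked from the widest, in ACBI (left) and DMSO (right), with peaks in a gene window coloured and named and all others grey. The 4 widest ACBI peaks and the 6 widest DMSO peaks each lie in a different gene of the set, and TBCD is at rank 4 in ACBI and rank 16 in DMSO.

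Most of each gene lay under acetylation. H3K27ac covered 85.8% of the FAM53B window in DMSO, 84.3% of the MSI2 window, 77.5% for HDAC4, 70.6% for TBCD, 67.5% for GALNT2, 57.5% for EVL and 51.5% for SEPT9. The domains covered very different parts of their genes. With DMSO peaks joined across gaps of up to 4 kb, a single domain of 426.9 kb with 25 peaks ran along MSI2 from 0.48 to 427.4 kb after the start (distances follow the direction of the gene from its start, known to 1 kb, and are negative before it). In SEPT9 the joined domain of 132.7 kb began 91.2 kb into the gene, and in EVL the domain of 142.7 kb began 35.7 kb in. FAM53B was acetylated from -0.61 to 154.0 kb, past the end of the gene at 125 kb. HDAC4 had 237.2 kb starting at -11.5 kb, GALNT2 had 113.3 kb and TBCD 170.8 kb. With gaps of up to 12500 bp, the usual setting for super-enhancers, the domain measured 439.6 kb at MSI2 and 368.4 kb at HDAC4. It measured 300.2 kb at FAM53B, 235.3 kb at TBCD, 218.3 kb at GALNT2, 185.6 kb at SEPT9 and 142.7 kb at EVL. The FAM53B domain at this setting joined 41 peaks from -85.9 to 214.3 kb. That of TBCD ran to 234.9 kb, so both reached past their windows.

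In the RefSeq gene table of GRCh38, no other protein-coding gene overlaps MSI2, SEPT9 or HDAC4 or the 25 kb on each side of them. FAM53B has LHPP and EEF1AKMT2 within that distance, EVL has DEGS2, and TBCD has FN3KRP, FN3K, ZNF750 and QTGAL, beside loci without a gene name at GALNT2 and TBCD. MicroRNAs lie inside SEPT9, HDAC4 and EVL, and EVL is the host gene of miR-342. Which parts of the domains were exonic or intronic in hg19 was not analysed here.

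**Figure D2:**
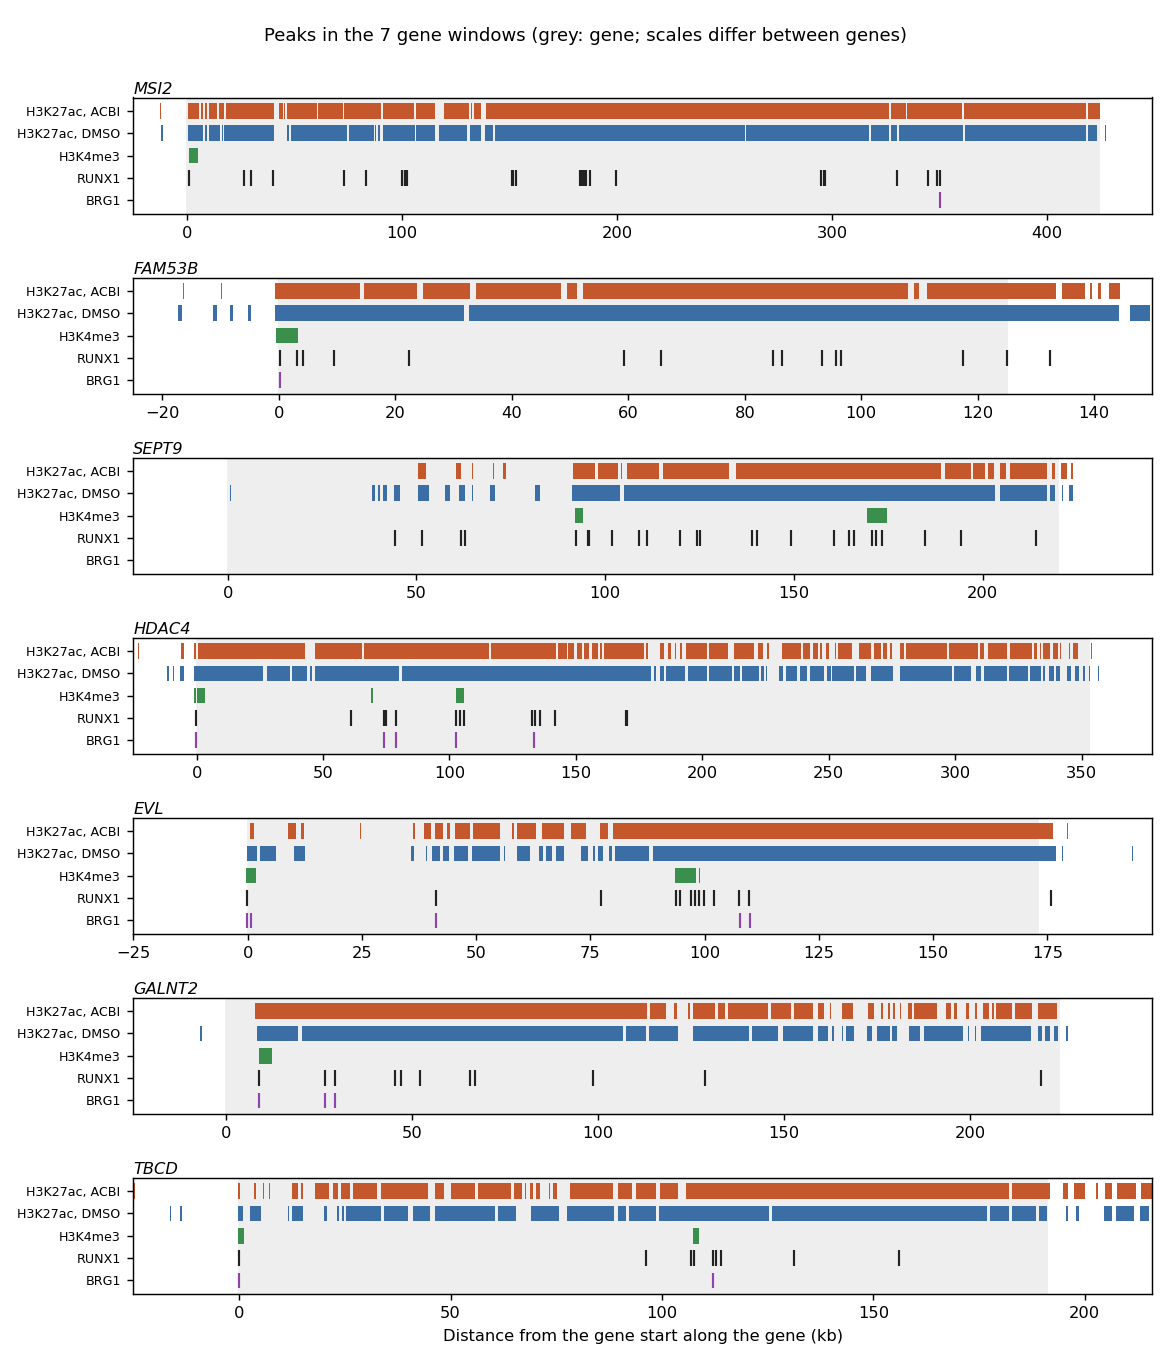
Peaks in each gene window by distance in kb from the gene start along the gene, with grey for the gene itself. Rows from top to bottom show H3K27ac in ACBI, H3K27ac in DMSO, H3K4me3, RUNX1 and BRG1, the last 2 as ticks at peak centres. The ACBI and DMSO rows follow each other closely along MSI2, while SEPT9 is almost bare before 38 kb and has no BRG1 tick.

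Most of each gene's widest DMSO peak was kept in ACBI, meaning overlapped by ACBI peaks. Of these 7 peaks, 1 per gene, some were covered by a single ACBI peak and others by several. For the 18 DMSO peaks of 40 kb or more outside the windows, the median length kept was 92.2% (quartiles 86.9 and 96.7). At MSI2 (chr17:55476001-55592256, 143 to 259 kb from the start), GALNT2 (chr1:230214258-230300719, 20.3 to 106.7 kb) and TBCD (chr17:80836075-80886888, 126 to 177 kb), a single ACBI peak covered 100% of the widest DMSO peak. At EVL (chr14:100526681-100614867, 88.7 to 176.9 kb) a single ACBI peak covered 99.2%. In these 4 genes the ACBI peak was wider than the DMSO peak and ran through short gaps between neighbouring DMSO peaks. The 187.6 kb ACBI peak of MSI2 spanned 4 DMSO peaks with gaps of at most 819 bp, that of GALNT2 spanned 3 with gaps of at most 1015 bp, that of TBCD 3 with gaps of at most 696 bp, and that of EVL 2 with a gap of 750 bp.

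FAM53B, SEPT9 and HDAC4 were in more pieces in ACBI. The widest FAM53B peak (chr10:126288729-126400416, 32.6 to 144.3 kb) was covered over 91.4% of its length by 10 ACBI peaks, with 9 inner gaps that summed to 9596 bp, the widest 1402 bp. The widest HDAC4 peak (chr2:240143340-240241710, 81.3 to 179.7 kb) was covered over 91.1% by 10 ACBI peaks, with 9 inner gaps of at most 1162 bp. The widest SEPT9 peak (chr17:75381982-75480360, 105 to 203 kb) was covered over 93.4% by 6 ACBI peaks, with 5 inner gaps of at most 1871 bp. None of the gaps held a RUNX1 or H3K4me3 peak. RUNX1 peaks took up 7.59% of the 283.6 kb that stayed covered in these 3 peaks and 0% of the 24.8 kb that did not. Over all DMSO peaks of 10 kb or more in the 7 windows, RUNX1 peaks took up 5.61% of the length that ACBI peaks covered and 1.13% of the length they did not. Outside the windows, in peaks of that width, they took up 8.41% of the length that ACBI peaks covered and 1.04% of the length they did not.

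Over whole windows, covered length in ACBI was between 0.880 and 1.01 times that in DMSO. MSI2 had 403.6 kb covered in ACBI and 399.4 kb in DMSO, a ratio of 1.01, and 97.4% of its DMSO length was kept. EVL had 127.7 kb in ACBI and 128.1 kb in DMSO, and TBCD had 169.0 kb in ACBI and 170.1 kb in DMSO, ratios of 0.996 and 0.993. Ratios near 1 did not mean that the same bases were covered, since 90.0% of the DMSO length was kept at EVL and 88.8% at TBCD. GALNT2 had 175.9 kb in ACBI and 185.1 kb in DMSO, with 88.9% kept. HDAC4 had 282.9 kb in ACBI and 312.3 kb in DMSO, a ratio of 0.906, and FAM53B had 134.4 kb in ACBI and 150.1 kb in DMSO, a ratio of 0.896. SEPT9 had the lowest ratio, 0.880, with 122.5 kb in ACBI and 139.2 kb in DMSO. That rank depended on the flank: with 50 kb on each side FAM53B was lowest, at 0.847, and SEPT9 stayed at 0.880. Pooled over the 7 windows, 1.42 Mb were covered in ACBI and 1.48 Mb in DMSO, a ratio of 0.954, against 0.552 outside the windows.

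Tiles of the genome give the background for these ratios. Among 250-kb tiles outside the windows with at least 10% DMSO cover, the median ratio was 0.538 (quartiles 0.414 and 0.668), and 6.18% of 1619 tiles reached the 0.880 of SEPT9. Among tiles with at least 50% DMSO cover, as in all 7 windows, the median was 0.770 and 19.6% of 51 tiles reached it. The windows were chosen on widths in these same lists, so nothing is read from the contrast.

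**Figure D3:**
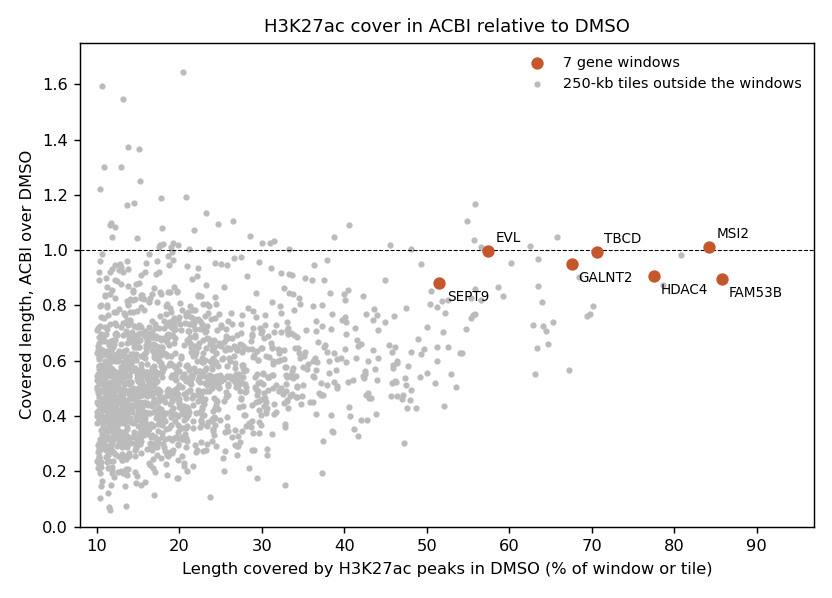
Length covered by H3K27ac in ACBI divided by that in DMSO (y axis, dashed line at 1) against the share of the region covered in DMSO in % (x axis), for the 7 gene windows (orange) and for 250-kb tiles outside them (grey, at least 10% DMSO cover). The windows lie between 0.880 and 1.01, and the tiles with at least 50% DMSO cover have a median of 0.770.

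What ACBI did not cover lay mostly in small peaks. The windows had 149.3 kb of DMSO length not kept, of which 95.7 kb lay in peaks under 10 kb. The widest peaks of the 7 genes made up 25.6 kb of it, and other peaks of 10 kb or more 28.0 kb. The share of length kept was 96.1% in these widest peaks, 94.1% in other peaks of 10 kb or more and 73.5% in peaks under 10 kb. Outside the windows it was 78.1% for peaks of 10 kb or more and 39.0% for smaller ones. At like width the gap was narrower: DMSO peaks of 40 kb or more were kept over 96.7% of their length in the windows (9 peaks) and 90.3% elsewhere (18 peaks), and peaks of 20 to 40 kb over 95.2% in the windows and 83.3% elsewhere.

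A DMSO peak with no overlapping ACBI peak is called lost here, and an ACBI peak with no overlapping DMSO peak gained. In the windows 34 of 165 DMSO peaks were lost (20.6%, exact 95% Clopper-Pearson interval 14.7 to 27.6), against 59.1% of all DMSO peaks, and 19 of 184 ACBI peaks were gained (10.3%, 6.33 to 15.7), against 21.4% of all. These intervals, like all others here, cover counting error only. Because 1 bp of overlap counts as kept, wide peaks are seldom lost, and nothing is read from these shares. With 50% cover required in place of 1 bp, 30.9% were lost and 21.2% gained, and with the 52967 widest peaks of either list 10.0% were lost. Counting a DMSO peak within 1 kb as shared left 3.80% gained, and the genes without flanks had 12.9% lost. The lost peaks were small, with a median of 502.5 bp and a maximum of 3537 bp. Of the 34, 1 overlapped RUNX1 (2.94%, 0.0744 to 15.3), against 5.02% of all 53490 lost DMSO peaks, a value inside the interval. None overlapped H3K4me3 or BRG1, for which the share over all lost peaks is not given here, so nothing is read from that. Gained peaks were smaller still. The widest, 864 bp, lay in SEPT9 (75349804 to 75350667), 1992 bp from a DMSO peak, and MSI2 had no gained peak. The widest gained peak of HDAC4 measured 666 bp (240096640 to 240097305), that of TBCD 524 bp (80912544 to 80913067) and that of GALNT2 457 bp (230356235 to 230356691). Those of EVL (100617255 to 100617566) and FAM53B (126442771 to 126443006) measured 312 and 236 bp.

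The genes differed in where small peaks were lost. All 5 FAM53B peaks under 10 kb were lost, 4 of them before the start at -17.3 to -4.88 kb and the widest, 3537 bp (126283395 to 126286931), past the end of the gene. SEPT9 lost 7 of 14, the widest of 1545 bp (75320985 to 75322529) with a RUNX1 peak inside it, and 32.0% of the length of its small peaks was kept, against 90.5% at MSI2. Outside the windows 59.8% of DMSO peaks under 10 kb were lost and 39.0% of their length was kept, so small peaks of SEPT9 were near that level. Of those 7, 6 lay 38.3 to 82.8 kb into the gene, before the first H3K4me3 peak of SEPT9 at 92.0 kb. MSI2 lost 1 of 17, a peak of 334 bp (55760065 to 55760398) past the end of the gene. HDAC4 lost 8 of 36, EVL 6 of 21, TBCD 4 of 25 and GALNT2 3 of 19. The widest lost peak of HDAC4 measured 788 bp (240277438 to 240278225), that of GALNT2 685 bp (230419704 to 230420388) and that of TBCD 445 bp (80695964 to 80696408).

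**Figure D4:**
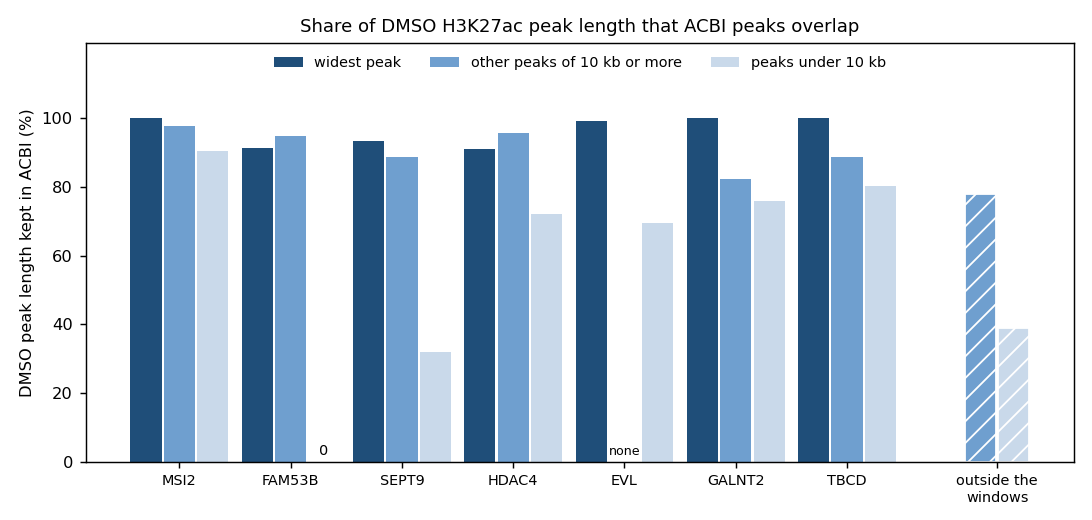
Share of DMSO H3K27ac peak length in % that ACBI peaks overlapped, by gene, for the widest peak, the other peaks of 10 kb or more and peaks under 10 kb. Hatched bars give peaks of 10 kb or more and under 10 kb outside the windows, 0 marks the FAM53B value and "none" marks EVL, which had no other peak of 10 kb or more. The widest peaks lie between 91.1% and 100%, and small peaks range down to 32.0% at SEPT9 and 0% at FAM53B.

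Gene starts and domains were separate in several genes. Within 2 kb of the gene start, 5 of 7 genes had an H3K4me3 peak. SEPT9 and GALNT2 had none there. The main H3K4me3 peak of GALNT2, 3482 bp wide and next to one of 168 bp, lay 8.79 to 12.3 kb after the start used here, and RefSeq's promoter for GALNT2 in GRCh38 lies 9.45 kb after the start of the gene record. SEPT9 had its H3K4me3 inside the gene, with a peak of 2225 bp at 92.0 to 94.2 kb and one of 5313 bp at 169.4 to 174.7 kb, the widest of the 17. EVL likewise had a wider H3K4me3 peak inside the gene (4698 bp, 93.4 to 98.1 kb) than at its start (2220 bp). The widest single H3K4me3 peak of HDAC4 also lay inside the gene (3161 bp at 102.7 to 105.8 kb). The HDAC4 start had separate peaks of 2731, 854 and 168 bp, which together covered more, 3753 bp. The 5313-bp peak of SEPT9, the 4698-bp peak of EVL and the 3161-bp peak of HDAC4 lay inside the widest DMSO H3K27ac peak of the gene. The widest DMSO peaks of MSI2, FAM53B, GALNT2 and TBCD held no H3K4me3. In ACBI this was so only at FAM53B, since the wider ACBI peaks of MSI2, GALNT2 and TBCD held 1, 2 and 1 H3K4me3 peaks.

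H3K27ac cover of H3K4me3 differed between conditions at the starts of EVL, TBCD and HDAC4. ACBI peaks covered all bases of 13 of the 17 H3K4me3 peaks, and DMSO peaks covered all bases of 15. The like shares over all H3K4me3 peaks are not given here. Whether these counts, or the partial cover at single starts, are unusual was therefore not tested. The H3K4me3 peak at the EVL start (100437707 to 100439926) was covered over 39.6% in ACBI and 97.6% in DMSO. That at the TBCD start (80709689 to 80711206) was covered over 41.5% in ACBI and 81.4% in DMSO, and the 2731-bp peak at the HDAC4 start (240320121 to 240322851) over 79.4% in ACBI and 100% in DMSO. A second HDAC4 peak of 854 bp was covered over 99.4% in ACBI and 100% in DMSO. Within 2 kb of the SEPT9 start, H3K27ac covered 0 bp in ACBI and 263 bp in DMSO. The H3K4me3 peaks at the starts of MSI2 and FAM53B, of 4304 and 3787 bp, were covered over 100% in both, as was a second MSI2 peak of 377 bp at 295.6 kb. At EVL the difference ran on into the gene, where a DMSO peak of 3503 bp (100440783 to 100444285, 2.78 to 6.29 kb) was lost, while the inner H3K4me3 peaks of EVL were covered fully in both conditions.

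RUNX1 peaks were found in every window but not along the whole of each domain. In the windows 21 of 28 DMSO peaks at least 10 kb wide held RUNX1, against 72.1% outside, and HDAC4 had no RUNX1 peak beyond 170.6 kb. SEPT9 and MSI2 had the most peaks in their windows, 25 and 26, followed by FAM53B with 15, HDAC4 with 14, EVL with 13, GALNT2 with 11 and TBCD with 9. Per 100 kb of DMSO H3K27ac this gave 18.0 at SEPT9, 10.1 at EVL, 9.99 at FAM53B, 6.51 at MSI2, 5.94 at GALNT2, 5.29 at TBCD and 4.48 at HDAC4. SEPT9 thus had the densest RUNX1 of the set while its gene start had none. The 7 windows together had 7.61 RUNX1 peaks per 100 kb (exact Poisson interval 6.27 to 9.15), against 13.2 (13.0 to 13.4) in DMSO H3K27ac outside them. Wide peaks elsewhere also had fewer per length, and at 40 kb or more the values were 8.78 (6.80 to 11.1) in the windows and 8.53 (6.70 to 10.7) outside, with overlapping intervals.

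Some RUNX1 peaks lay in clusters inside the genes and others stood alone. With centres linked across up to 5 kb, a grouping chosen after the positions were seen, the 113 peaks formed 61 groups, of which 36 were single peaks. The largest cluster of EVL held 7 peaks from 93.2 to 102.2 kb, over its inner H3K4me3 peak. SEPT9 had 6 from 160.0 to 173.7 kb, again reaching its 5313-bp H3K4me3 peak. MSI2 had 5 from 182.3 to 188.2 kb, 100 kb and more from either of its H3K4me3 peaks, and TBCD had 5 from 106.7 to 114.0 kb, beside its inner H3K4me3 peak of 1461 bp at 107.4 kb. The clusters of EVL, SEPT9 and MSI2 lay inside the widest DMSO H3K27ac peak of the gene, and that of TBCD did not. In HDAC4, FAM53B and GALNT2 the largest clusters held 3, 3 and 2 peaks, with ties of 3, 2 and 3 clusters, and 1 of the pair in FAM53B lay at the gene start. Long acetylated stretches lay between clusters. Inside the widest DMSO peak of EVL, neighbouring RUNX1 peaks were up to 65.9 kb apart, and inside the 187.6 kb ACBI peak of MSI2 up to 95.0 kb. The widest RUNX1 peak of the set, 2134 bp, lay in MSI2 (55531604 to 55533737, 199 to 201 kb), followed by 1965 bp in EVL (100544453 to 100546417). The median width in the windows was 511 bp, against 402 bp over all RUNX1 peaks.

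Nearly all RUNX1 sites of the 7 genes kept H3K27ac in ACBI. All 113 RUNX1 peaks overlapped H3K27ac in DMSO (83.8% of all RUNX1 peaks did), which the choice of windows full of H3K27ac favours. Of these, 110 overlapped H3K27ac in ACBI as well (97.3%, 92.4 to 99.4), against 76.1% of all RUNX1 peaks in DMSO H3K27ac. Those in DMSO peaks of 10 kb or more did so in 101 of 101 cases in the windows (interval 96.4 to 100) and in 97.4% of 1750 cases elsewhere, a value inside that interval. The exceptions were at the EVL start (100437659 to 100438111) and in the first part of SEPT9 (75321151 to 75321668 and 75339838 to 75340030). Of the 113 peaks, 21 lay on H3K4me3 (18.6%, 11.9 to 26.99), against 43.0% of all RUNX1 peaks.

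BRG1 peaks were few under these domains. HDAC4 and EVL had 5 each, GALNT2 3, TBCD 2, MSI2 and FAM53B 1 each and SEPT9 none, although SEPT9 had 25 RUNX1 peaks. The widest DMSO peaks of the 7 genes held 64 RUNX1 peaks and 6 BRG1 peaks, 2 each in HDAC4, EVL and GALNT2. The RUNX1 peaks numbered 16 in SEPT9, 10 each in FAM53B and EVL, 9 each in MSI2 and HDAC4, 8 in GALNT2 and 2 in TBCD. The widest peaks of MSI2, FAM53B, SEPT9 and TBCD held no BRG1 peak. In DMSO peaks of 10 kb or more there were 1.16 BRG1 peaks per 100 kb in the windows (exact Poisson interval 0.617 to 1.98) and 2.99 outside (2.72 to 3.28), and these intervals did not overlap. H3K4me3 peaks differed in the same direction, with 1.25 per 100 kb (0.682 to 2.09) in the windows and 4.06 (3.75 to 4.39) outside, and the part of H3K4me3 in the BRG1 difference was not tested. By width, peaks of 10 to 20 kb had 0.714 BRG1 peaks per 100 kb (0.0181 to 3.98) in the windows and 3.23 (2.89 to 3.60) outside, and peaks of 20 to 40 kb had 2.74 (1.01 to 5.96) in the windows and 2.63 (2.18 to 3.14) outside. At 40 kb or more there were 0.786 (0.288 to 1.71) in the windows and 2.19 (1.32 to 3.42) outside. Within each width class the intervals overlapped. Below 40 kb the outside value lay inside the interval of the windows in both classes. At 40 kb or more, 0.786 lay below the outside interval and 2.19 lay above that of the windows. Overlap of intervals does not show equal densities, and whether BRG1 density differed at like width was not tested.

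**Figure D5:**
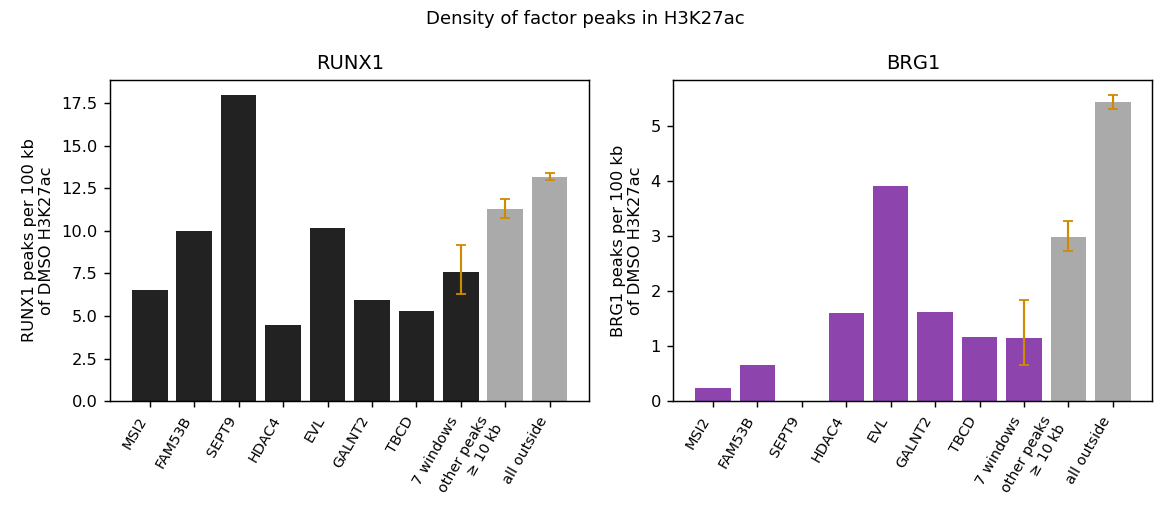
RUNX1 (left) and BRG1 (right) peaks per 100 kb of DMSO H3K27ac for each gene window, the 7 windows together, DMSO peaks of 10 kb or more outside the windows, and all DMSO H3K27ac outside. Error bars on the pooled values are exact 95% Poisson intervals. SEPT9 has the highest RUNX1 density, 18.0, and no BRG1 peak.

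Where BRG1 was found, RUNX1 was mostly with it, in the windows as over the whole list. Of the 17 BRG1 peaks, 16 overlapped RUNX1 (94.1%, 71.3 to 99.9), against 80.7% of all BRG1 peaks, a value inside the interval. Conversely 16 of 113 RUNX1 peaks overlapped BRG1 (14.2%, 8.32 to 22.0), against 29.8% of all RUNX1 peaks, which lies outside the interval. Among peaks of at least 500 bp it was 3.51% (2 of 57, 0.428 to 12.1), against 7.30% of all RUNX1 peaks of that width, which lies inside the interval. When BRG1 had to cover 50% of the RUNX1 peak it was 3.54% (0.973 to 8.82), against 16.6% of all. RUNX1 peaks of the windows also lay on H3K4me3 less often, 18.6% against 43.0% of all. The part of H3K4me3 in the lower BRG1 share was not tested. H3K4me3 lay under 7 of the 17 BRG1 peaks (41.2%, 18.4 to 67.1), against 61.8% of all, again inside the interval. The single BRG1 peak without RUNX1 was a 192-bp peak just after the EVL start (100438724 to 100438915).

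The BRG1 peaks fell at gene starts and at RUNX1 peaks inside the genes. The widest was at the HDAC4 start (240322695 to 240323614, 920 bp, rank 66 of all BRG1 peaks), inside a RUNX1 peak of 1335 bp, where H3K27ac covered 506 bp in ACBI and 920 bp in DMSO. FAM53B (126432715 to 126432942, 228 bp), TBCD (80709670 to 80710111, 442 bp) and EVL had BRG1 at the start as well, all overlapping RUNX1, and GALNT2 had a peak of 522 bp at its H3K4me3 peak (230202556 to 230203077). The only BRG1 peak of MSI2 lay 350 kb into the gene (55682773 to 55683293, 521 bp), inside a RUNX1 peak of 1053 bp and 53826 bp from H3K4me3, with full H3K27ac cover in both conditions. In EVL a pair of BRG1 peaks at 107.5 and 109.9 kb lay inside RUNX1 peaks of 1965 and 1018 bp. H3K27ac in ACBI overlapped 16 of the 17 BRG1 peaks (94.1%, 71.3 to 99.9), against 76.3% of all BRG1 peaks in DMSO H3K27ac. That value lies inside the interval, and windows chosen for wide H3K27ac favour such overlap, so nothing is read from it. The exception was the 441-bp peak at the EVL start (100437655 to 100438095), of which H3K27ac covered 0 bp in ACBI and 336 bp in DMSO, at the promoter whose sequence is shown above.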

How the data were processed

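The authors deposited 1 peak list per library, with chromosome, start, end and name. The values used are therefore other than signal: positions, with no score, depth or normalization. The submitters' processing notes name the hg19 build, MACS2 and SEACR. RUNX1 peaks came from MACS2, and H3K27ac peaks are broad peaks at q below 0.01, per the file headers. The sources used here do not name an aligner or say how controls were used. The 4 control libraries (IgG or input) of 9 samples were not analysed here, and by its title RUNX1 had an input as control.

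Overlaps of at least 1 bp and covered lengths were computed in Python 3.11.15 (numpy 2.4.6, pandas 2.3.3, scipy 1.17.1, matplotlib 3.10.9) and checked against bedtools 2.31.1 on 25 ordered pairs of lists, with 0 peaks differing. Gene ranges were given in whole kb. Strand, neighbours and promoters came from RefSeq tables of GRCh38.p14, in which all 7 genes matched (SEPT9 as SEPTIN9). Their coordinates were not mixed with hg19. Intervals are exact at 95%, over peaks, and neighbouring peaks are not independent. The genes, comparisons and alternatives were chosen with earlier results of these data known. For each gene the text names the widest peaks, joined domains, H3K4me3 at and beyond the start, the widest BRG1 peak with RUNX1, and the widest lost and gained peaks. Alternatives were other windows, minimum widths, overlap rules, merged peaks, equal numbers of widest peaks and leaving out each gene.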

Additional observations from a re-analysis of the deposited data

How the results depend on the processing

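Of 156 values recomputed under alternatives, 146 stayed within the limits set (0.1 for a ratio of covered lengths, 10 percentage points for length kept, the exact interval for a share) and 10 moved. The limits for ratios and length kept are nearly as wide as the spread between the genes. Staying within them does not show that the order of the genes holds. Of 14 joined domain lengths under smaller gaps, 10 moved by more than 1.5 times. The pooled ratio of covered length stayed between 0.933 and 0.967, the ratios per gene between 0.847 and 1.01, the length kept per gene between 83.6% and 98.9%, and the share of RUNX1 peaks that kept H3K27ac between 96.6% and 98.9%. FAM53B's ratio ranged from 0.847 to 0.949, and those of EVL and TBCD from 0.969 to 1.01 and from 0.965 to 1.01, on both sides of 1. The share of DMSO peaks lost was 12.9% in the genes without flanks, 10.0% with only the 52967 widest peaks taken from either list and 30.9% when overlap meant 50% cover. The share of ACBI peaks gained was 15.8% with the same number of peaks per list, 21.2% with 50% cover and 3.80% when a DMSO peak within 1 kb counted. BRG1 peaks overlapped RUNX1 in 66.7% of cases (2 of 3) among peaks of at least 500 bp, against 70.3% of all BRG1 peaks of that width. Without EVL the share was 100%. RUNX1 peaks overlapped BRG1 in 3.51% of cases at that minimum and in 3.54% with 50% cover. No paired analysis was possible because each group has 1 library. Without read depth, signal within a peak, and any spread between cultures, cannot be seen.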
